A study of Rattus norvegicus with 18 samples.

Results

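The collagen genes of the rat were followed in the neural retina and in the RPE/choroid, which is the retinal pigment epithelium with the vascular layer behind it. A gene was taken as a collagen when its symbol had the form Col, a number, a and a number. By that rule 44 genes were found among 32899 gene identifiers in the count tables. They were sorted by the structure their proteins form into 11 fibrillar collagens, 8 collagens of the basement membrane and its border zone, and 25 others. The values are CPM, counts scaled to library size by edgeR's TMM method, in each of 18 bulk RNA-seq libraries.

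All rats were female, wild-type Fischer 344 animals. In each tissue 3 libraries came from untreated young rats of 4 months by the labels, 3 from aged rats of 24 months on plain water, and 3 from aged rats of 24 months that had received 8-AG. 8-AG is 8-aminoguanine, an inhibitor of the enzyme purine nucleoside phosphorylase, given in the drinking water at 5 mg per kg of body weight a day for the final 8 weeks. The RPE/choroid was the material washed out of the eye cup once the neural retina had been lifted off, and its libraries were enriched for full-length transcripts. The 3 young RPE/choroid libraries carry only 2 label numbers, and so do the 3 aged ones, with left and right marks, so 2 libraries of one group may be the 2 eyes of one rat. The p-values measure the spread between these libraries, which may in part be technical. The labels name total RNA for the 8-AG retina libraries and polyA RNA for the others, and this difference cannot be told apart from the treatment.

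Collagens are extracellular proteins of 3 chains wound into a triple helix. Fibrillar collagens, such as types I, II, III, V and XI, pack into the fibrils that give the sclera, choroid and vitreous their strength. Type IV chains form the sheet-like network of basement membranes, which in the eye include the sheet under the RPE, the inner limiting membrane of the retina, the sleeves of capillaries and the lens capsule. Types XV and XVIII sit in the zone beside basement membranes. Type VI builds beaded filaments, type VIII builds networks, types IX and XII to XXII include molecules that ride on fibrils, and types XIII, XVII, XXIII and XXV span the cell membrane.

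The 6 type IV genes lie as pairs of neighbours read in opposite directions, and parts of the stretches between their starts are shown. All 6 were highest in the same 3 retina libraries, described below, so that pattern was not particular to a pair. The part of these sequences in the levels was not tested. In RefSeq's GRCr8 promoter windows, 76 bases separate the starts of Col4a1 and Col4a2, 412 those of Col4a3 and Col4a4, and 1414 those of Col4a5 and Col4a6. The run between the starts of Col4a1 and Col4a2 (chr16:84885521-84885596, plus strand) and the 250 bases before the start of Col4a3 (chr9:91323740-91323989, plus strand) are given 5′ to 3′. Capitals mark matches, on either strand, to the letters of 3 promoter elements that do not overlap here. These are the TATA box, TATAAA, the CCAAT box, named by its letters, and the GC box, GGGCGG.
Col4a1 and Col4a2: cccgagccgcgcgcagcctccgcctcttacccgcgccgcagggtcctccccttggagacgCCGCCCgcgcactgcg
Col4a3: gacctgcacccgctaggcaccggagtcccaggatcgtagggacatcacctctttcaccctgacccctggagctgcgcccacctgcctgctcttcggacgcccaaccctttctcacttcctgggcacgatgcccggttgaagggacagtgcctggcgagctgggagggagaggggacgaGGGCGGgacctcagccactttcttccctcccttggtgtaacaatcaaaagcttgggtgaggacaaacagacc
Each run held 1 match to the GC box, on the reverse strand in the first, and 0 to the other 2 elements. Among 33465 promoter windows of 250 bases before a start, 30.5% held the GC box, 34% the CCAAT box and 12.9% the TATA box. Of the 35 collagen genes with a window among these, 19 held the GC box, 11 the CCAAT box and 4 the TATA box. A gene was counted when any of its windows held the element. These counts are therefore not on the same footing as the percentages of single windows.

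The libraries held 12283458 to 15644346 counts in the retina and 28573828 to 48203050 in the RPE/choroid. The 11 RPE markers, which check the tissue labels, summed to 6224 to 18930 CPM in the RPE/choroid against 267 to 587 CPM in the retina. Rpe65, which the paper lists among RPE-specific mRNAs, overlapped between the tissues. It stood at 26.7 and 57.0 CPM in RPE/choroid aged library 2 and young library 3, and at 107.6 CPM or more in the others. In the retina its highest level was 63.65 CPM, in 8-AG library 1. The sum thus separated the tissues, and Rpe65 alone did not. Some libraries stood apart. In the retina, 17 lens markers summed to 3150 and 7054 CPM in young libraries 1 and 2 and 1937 CPM in 8-AG library 1, against 177 CPM in young library 3 and 17.9 to 24.9 CPM in the other 5. Foxe3, a regulator of the lens epithelium, stood at 4.71 to 7.60 CPM in the first 3 and had no counts in the rest. In the RPE/choroid, 8-AG library 1 held 55900 CPM of striated muscle markers and 55010 CPM of rod markers. Its melanocyte markers summed to 1418 CPM, against 11420 to 30520 CPM in the other 8 libraries. Rod markers ranged from 604 to 19600 CPM in those 8. Muscle markers were also high in young library 2, aged library 1 and 8-AG library 2, at 2468 to 5227 CPM.

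The first comparison asked which collagens differed between aged and young retina. By a fold change over 1.5 with P under 0.05, 2 of the 36 collagens with enough counts were higher in aged retina, Col15a1 and Col27a1, and 4 were lower, Col2a1, Col4a3, Col13a1 and Col20a1. Those are 5.56% and 11.1% of the collagens tested, against 6.45% and 2.39% of all genes tested. Col15a1 had enough counts for the test only through the aged libraries, where it is high. With an adjusted p under 0.05, 2 were higher and 2, Col2a1 and Col5a3, were lower, against 7.29% and 7.26% of all genes. Of the 36 changes 14 were above 0 and 22 below, against 50.4% and 49.6% of all genes. The median log2 fold change was -0.12 over the 36 collagens and 0.00 over all genes tested. The 8 collagens with too few counts for the test were Col1a1, Col1a2, Col6a4, Col6a6, Col10a1, Col17a1, Col26a1 and Col28a1.

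Among the fibrillar collagens, Col27a1 had the firmest change. Col27a1 encodes type XXVII collagen, a fibrillar chain best known from cartilage. It stood at 61.3, 75.0 and 61.8 CPM in the young libraries, 114, 92.0 and 107 CPM in the aged ones and 51.0, 80.8 and 81.8 CPM in those with 8-AG. Every aged library was above every young one and every 8-AG one, while the young and 8-AG libraries overlapped. Its aged level was higher than the young by 0.66 ± 0.10 on the log2 scale (SE, edgeR, adjusted p = 0.00375). It passed fold and P under each of 18 alternative settings, with an adjusted p = 0.0651 when the level of the lens markers was a covariate.

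Col5a3 encodes a chain of type V collagen, which helps set the width of fibrils. Its levels were 764, 959 and 887 CPM in young, 714, 529 and 602 CPM in aged and 410, 646 and 586 CPM in 8-AG retina. All young libraries lay above all aged ones, and the aged and 8-AG libraries overlapped. Col5a3 fell by 0.50 ± 0.12 on the log2 scale (SE, edgeR, adjusted p = 0.0329), which is short of a 1.5-fold change. The adjusted p was 0.0713 to 0.111 without young library 2, young library 3, aged library 2 or aged library 3, and it was 0.0244 and 0.00741 without young library 1 and aged library 1, where the fall also passed 1.5-fold. It was 0.112 without young libraries 1 and 2, 0.462 with the lens covariate, 0.122 with the replicate number as a block and 0.115 with all 3 groups in one fit.

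Col2a1, the chain of type II collagen of vitreous and cartilage, stood at 66.4, 75.2 and 62.7 CPM in young, 56.1, 38.3 and 40.2 CPM in aged and 37.1, 39.5 and 44.8 CPM in 8-AG retina. The young libraries were again all above the aged ones. Col2a1 fell by 0.60 ± 0.15 on the log2 scale (SE, adjusted p = 0.042). The adjusted p rose above 0.05 without any 1 library other than aged library 1, at 0.0618 to 0.127, and to 0.317 without young libraries 1 and 2. With the lens markers as a covariate the change was -0.34 (adjusted p = 0.673). Col11a2, which pairs with type II collagen in fibrils, stood at 66.3, 74.5 and 88.9 CPM in young and 57.0, 20.9 and 38.1 CPM in aged retina. These groups did not overlap, but the change of -0.99 ± 0.40 did not pass (adjusted p = 0.196).

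The other fibrillar collagens gave no call. Col5a2 had a change of 0.68 ± 0.32 (adjusted p = 0.225), from 10.9 to 13.0 CPM in young to 11.3 to 26.8 CPM in aged retina, with aged library 2 alone inside the young range. Without that library its change was 0.96 (adjusted p = 0.0016). Col11a1 had a change of -0.53 ± 0.46, Col5a1 of 0.05 ± 0.32 and Col3a1 of -0.10 ± 0.48. Col1a1, the main chain of type I collagen in sclera and choroid, was close to the lower limit of counting in the retina, at 25, 11 and 5 counts in young and 7, 6 and 5 counts in aged libraries. Col1a2 had 41, 234 and 0 counts in young libraries and 0 in all 3 aged ones. A count of 0 allows up to 3 counts, or 0.191 to 0.234 CPM in the aged libraries. The gene model of Col1a2 is uncertain, since it held at most 2.33 CPM in the RPE/choroid. There the partner chain Col1a1 stood at 286 to 815 CPM in the 8 libraries other than 8-AG library 1.

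**Figure D1:**
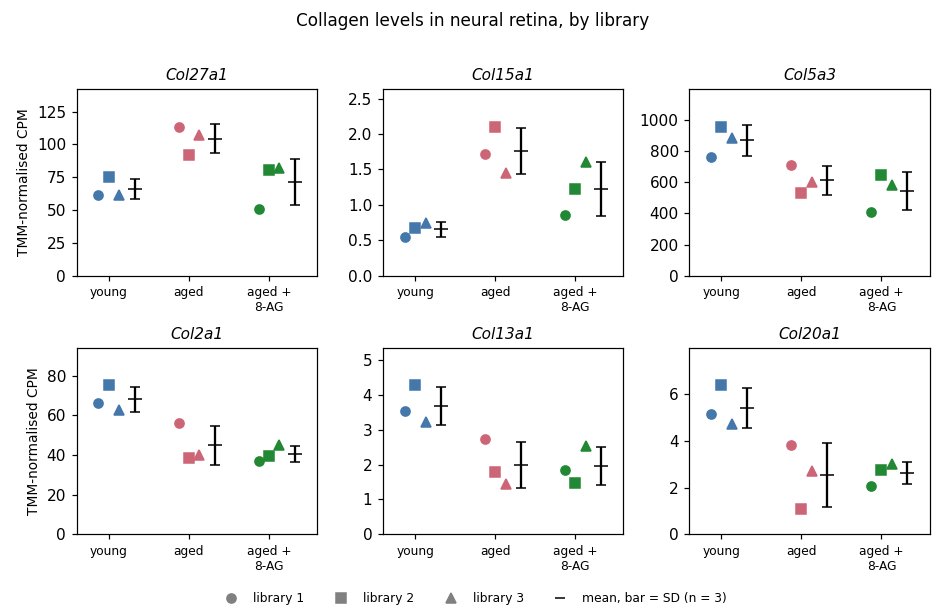
TMM-normalised CPM of 6 collagens in each of the 9 neural retina libraries, with young, aged and aged + 8-AG on the horizontal axis, and the mean with SD (n = 3) beside the points. For Col27a1 and Col15a1 the aged points all lie above the young ones, and for the other 4 they all lie below.

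The type IV collagens varied more between libraries than between ages. Col4a1 and Col4a2 encode the chains found in nearly all basement membranes, and Col4a3 to Col4a6 encode chains of more specialised ones. Col4a1 stood at 453, 735 and 18.4 CPM in young, 19.7, 48.1 and 13.1 CPM in aged and 329, 17.5 and 18.6 CPM in 8-AG retina. Col4a2 stood at 199, 330 and 19.7 CPM, then 22.4, 31.7 and 17.1 CPM, then 143, 20.6 and 21.0 CPM in the same order. Young libraries 1 and 2 and 8-AG library 1 were high for both genes, and young library 3 lay among the aged libraries.

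The remaining chains showed the same 3 high libraries. Col4a3 stood at 99.8, 161 and 20.9 CPM in young, 24.8, 12.1 and 14.9 CPM in aged and 94.6, 15.98 and 12.5 CPM in 8-AG retina. Col4a4 ranged from 38.2 to 54.8 CPM in the 6 libraries outside the high 3 and from 152 to 259 CPM inside them, and Col4a5 from 19.1 to 32.3 CPM outside and 57.6 to 79.7 CPM inside. Col4a6 stood at 3.04 CPM in young library 3, 8.29 to 9.95 CPM in the other 5 and 21.2 to 32.4 CPM in the high 3. The high libraries were the 3 with the lens markers. Only Col4a3 passed fold and P, with a change of -2.45 ± 0.89 (adjusted p = 0.168), and it lost that call when any 1 library other than young library 3 was left out. For Col4a1 the change was -3.89 ± 1.52 (adjusted p = 0.193), and for Col4a2 it was -2.94 ± 1.13 (adjusted p = 0.189).

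The lens markers summed to 177 to 7054 CPM in young and 17.9 to 24.9 CPM in aged retina, without overlap. A fit with them as a covariate therefore cannot separate age from lens RNA. In that fit the change with age was 1.26 for Col4a3 (adjusted p = 0.471), 3.34 for Col4a1 (adjusted p = 0.418) and 2.40 for Col4a2 (adjusted p = 0.126), so the sign turned. Col4a6 and Col4a5, with changes of -1.05 and -0.80 in the comparison as designed, then stood at 3.38 (adjusted p = 0.000634) and 1.73 (adjusted p = 0.00514), and Col4a4 at 1.44 (adjusted p = 0.0522). Without young libraries 1 and 2 the changes were -0.28 for Col4a3, 0.56 for Col4a1, 1.62 for Col4a6 and 0.64 for Col4a5. That leaves 1 young library, library 3, which is assumed to vary like the others. Its fibroblast markers, at 53.4 CPM, were below those of young libraries 1 and 2, at 115 and 120 CPM. Its melanocyte and Schwann cell markers were also lower, at 17.0 and 20.9 CPM against 51.0 to 59.85 and 45.4 to 53.2 CPM. Its rod markers lay between theirs and its endothelial markers above. The part of these markers in the changes was not tested. With the lens covariate 13 of 36 collagens were higher in aged retina by fold and P and 0 lower, against 8.46% and 2.06% of all genes. Without young library 3, in contrast, 12 of 39 were lower, against 3.09%.

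**Figure D2:**
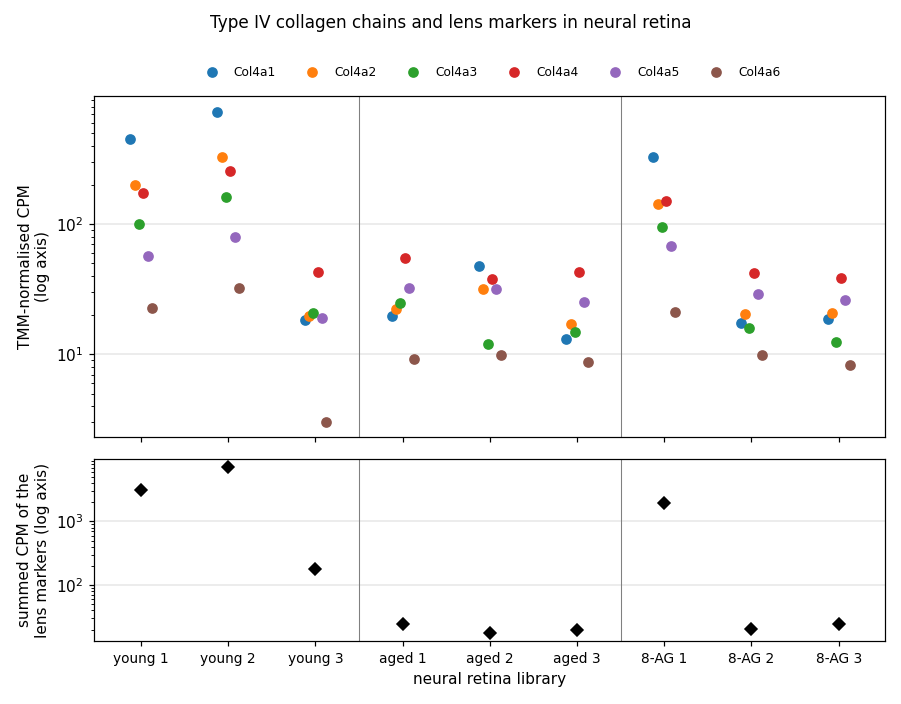
TMM-normalised CPM of Col4a1 to Col4a6 (upper panel) and the summed CPM of 17 lens markers (lower panel) in the 9 neural retina libraries, both on log axes. The 3 libraries with 1937 to 7054 CPM of lens markers, young 1, young 2 and 8-AG 1, are the 3 with the highest level of each type IV chain.

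Col8a1 and Col8a2 encode type VIII collagen, the network collagen of corneal and vascular membranes. Col8a1 stood at 8.94, 15.4 and 1.62 CPM in young, 12.6, 6.57 and 10.6 CPM in aged and 35.6, 10.5 and 10.2 CPM in 8-AG retina. Young library 3 was the lowest and 8-AG library 1 the highest, so the aged libraries lay inside the young range. Col8a2 also had these as its lowest and highest libraries, with 7.63, 8.58 and 1.35 CPM in young against 10.9, 8.36 and 11.8 CPM in aged retina. Neither passed in the comparison as designed (0.20 ± 0.80 and 0.83 ± 0.64). With the lens covariate they were the collagens with the largest increases, 4.32 (adjusted p = 0.0186) and 4.26 (adjusted p = 0.00312). As above, that fit cannot separate age from lens RNA.

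Col15a1 and Col18a1 belong to the border zone of the basement membrane. Col15a1, which in vessels and muscle links basement membrane to the fibrils beside it, had 7, 9 and 11 counts in young, 22, 33 and 21 counts in aged and 11, 15 and 24 counts in 8-AG libraries. In CPM these were 0.54 to 0.74, 1.45 to 2.11 and 0.85 to 1.604. All aged libraries were above all young ones, and of the 8-AG libraries 1 lay inside the aged range and 2 between the ranges. The increase was 1.41 ± 0.32 on the log2 scale (SE, edgeR, adjusted p = 0.0155). Its counts passed the filter for this test only through the aged libraries, where they are high, so the call leans on that filter. The value joins 2 gene models that share reads. The model with this symbol in the retina table had 0 to 20 counts a library, and the counts that differed with age lay in the other, which has the symbol only in the RPE/choroid table. Under the retina symbol alone Col15a1 had too few counts for the test, and with the lens covariate its change was 1.16 (adjusted p = 0.495). The adjusted p was also above 0.05 without young library 1, young library 2 or aged library 2, at 0.0557 to 0.0663, without young libraries 1 and 2, at 0.224, and in DESeq2, at 0.0792. Col18a1, the source of the fragment endostatin, stood at 76.1, 71.9 and 40.3 CPM in young and 81.0, 83.6 and 62.6 CPM in aged retina, a change of 0.27 ± 0.29. Young library 3 was the lowest of all 9 libraries for Col18a1. Its change was 0.91 without young libraries 1 and 2, which leaves only that library, and 1.38 (adjusted p = 0.0605) with the lens covariate.

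Markers of other cells moved with age in the same libraries. The 8 fibroblast markers summed to 53.4 to 120 CPM in young and 155 to 236 CPM in aged retina, with the defining genes Dcn at 0.35 CPM or less and Lum at 1.64 CPM or less in all 6. The 4 astrocyte markers summed to 56.6 to 73.2 CPM in young and 284 to 530 CPM in aged retina. Most of the aged sum was Gfap, at 219 to 444 CPM against 21.2 to 33.3 CPM in young retina. The paper used GFAP as a marker of activated Müller glia, so the sum is not particular to astrocytes. The 11 rod markers found summed to 52880 to 57690 CPM in young and 33270 to 37800 CPM in aged retina, without overlap. The 8 endothelial markers found overlapped, at 676 to 743 and 587 to 741 CPM. Their part in the collagen changes was not tested. In bulk tissue, fewer cells of a type and less RNA per cell cannot be told apart.

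Of the other collagens, Col13a1 and Col20a1 were lower. Col13a1 encodes a collagen that spans the cell membrane, and it stood at 3.54, 4.29 and 3.24 CPM in young, 2.73, 1.79 and 1.45 CPM in aged and 1.85, 1.47 and 2.54 CPM in 8-AG retina. Its change was -0.90 ± 0.27 (adjusted p = 0.0529). Col20a1, of the fibril-associated kind, stood at 5.16, 6.399 and 4.73 CPM in young, 3.82, 1.08 and 2.69 CPM in aged and 2.09, 2.77 and 3.01 CPM in 8-AG retina, a change of -1.12 ± 0.38 (adjusted p = 0.0905). For both genes every young library was above every aged one. Col20a1 no longer passed without young library 2 or without aged library 3 (adjusted p = 0.232 and adjusted p = 0.2). Without young libraries 1 and 2 neither gene passed, at -0.71 for Col13a1 (adjusted p = 0.396) and -0.91 for Col20a1 (adjusted p = 0.477). With the lens covariate neither passed, at -0.50 for Col13a1 (adjusted p = 0.729) and -0.70 for Col20a1 (adjusted p = 0.747).

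The best known of the remaining collagens gave no call. Type VI collagen, the beaded filament around cells, had changes of -0.63 ± 0.31 for Col6a1, -0.22 ± 0.40 for Col6a2 and -0.59 ± 0.43 for Col6a3. Col6a1 was the only one of the 3 whose groups did not overlap, at 1.77, 3.16 and 1.69 CPM in young and 1.33, 1.53 and 1.38 CPM in aged retina. Col9a1, a type IX chain of the vitreous, stood at 52.4 to 89.2 CPM in young and 60.3 to 86.4 CPM in aged libraries. Col12a1 and Col14a1, both fibril-associated, changed by 0.09 ± 0.25 and -0.08 ± 0.25. Over all 36, the aged libraries lay wholly above the young ones for 3 collagens and wholly below for 6, which is 8.33% and 16.7%, against 18.1% and 17.2% of all genes.

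Genes that make and handle collagen are given beside the chains. Of 27 collagen processing genes tested, 3 were higher and 1 lower by fold and P, or 11.1% and 3.70% against 6.45% and 2.39% of all genes, with a list median of 0.07 against 0.00 for all genes. Adamts3, which trims type II procollagen, fell by 0.85 ± 0.10 (adjusted p = 0.000831), from 46.5 to 54.7 CPM to 23.8 to 29.9 CPM. Adamts2, which trims types I to III, rose by 1.246 ± 0.33 (adjusted p = 0.0315), and P3h3, a prolyl 3-hydroxylase, rose by 0.51 ± 0.10 (adjusted p = 0.00729). Crtap and Loxl3 were past fold and P with adjusted p of 0.0927 and 0.074.

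Among 8 receptors, the alpha-1 integrin Itga1 rose by 0.40 ± 0.12 (adjusted p = 0.0432), and 0 were past fold and P. Of 19 partners in fibrils and basement membranes, 2 were higher and 1 lower, or 10.5% and 5.26%. Prelp, a proteoglycan that anchors basement membrane to collagen, rose from 31.0 to 37.3 CPM to 58.4 to 78.1 CPM, by 0.93 ± 0.12 (adjusted p = 0.00146). Postn was higher (0.60 ± 0.19, adjusted p = 0.101) and Lama1, a laminin chain, lower (-1.16 ± 0.38, adjusted p = 0.117). Lama1 stood at 8.87 to 15.1 CPM in aged and 15.3 to 34.5 CPM in young retina. Of 9 regulators, the TGF-beta receptor Tgfbr2 was higher by 1.06 ± 0.21 (adjusted p = 0.00894).

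The second comparison asked how the collagens of aged retina differed with 8-AG, using the same aged libraries as the first. By fold and P, 3 of 38 collagens tested were higher with 8-AG, Col1a1, Col17a1 and Col6a2, and 0 were lower. That is 7.89% and 0%, against 0.526% and 0.424% of all genes. Col1a1 and Col17a1 passed the count filter only through the 8-AG libraries, where they are high. Their calls, and the 7.89% that includes them, lean on that filter. None had an adjusted p under 0.05 in edgeR, where 4 had an unadjusted P under 0.05 against 3.66% of all genes, and DESeq2 gave 0 as well. Of all genes, 0.0205% were higher at that level. Of the 38 differences 21 were above 0, against 49.0% of all genes.

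Col1a1 had 7, 6 and 5 counts in aged and 33, 15 and 12 counts in 8-AG retina, or 0.35 to 0.55 CPM and 0.80 to 2.55 CPM. The groups did not overlap and 8-AG library 1 was the highest. The difference was 1.82 ± 0.50 (adjusted p = 0.996), and 1.23 (adjusted p = 0.717) without 8-AG library 1. Col17a1, the transmembrane collagen of epithelial hemidesmosomes, had 2, 11 and 9 counts in aged and 18, 15 and 18 counts in 8-AG libraries, a difference of 1.31 ± 0.44 (adjusted p = 0.996). Neither group overlapped the other for Col17a1. The 6 surface epithelium markers found summed to 2.97 to 4.59 CPM in aged and 10.4 to 24.7 CPM in 8-AG retina. Krt12, a keratin of corneal epithelium, stood at 7.96 and 9.29 CPM in 8-AG libraries 3 and 2 and at 1.39 CPM in library 1. Their part in the level of Col17a1 was not tested.

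Col6a2 stood at 9.76, 8.61 and 7.81 CPM in aged and 19.9, 8.89 and 12.5 CPM in 8-AG retina, with one 8-AG library inside the aged range. The difference of 0.65 ± 0.27 (adjusted p = 0.996) was 0.30 (adjusted p = 0.82) without 8-AG library 1, and it lost its call without any 1 of the other libraries save 8-AG library 2. Col27a1, the collagen with the firmest increase with age, was lower with 8-AG in every library than in every aged one. The same aged libraries set that increase, so this difference is not independent of it. The difference of Col27a1 was -0.55 ± 0.19 (adjusted p = 0.996), just short of 1.5-fold. Without 8-AG library 1, the lowest, it was -0.36 (adjusted p = 0.474). Without 8-AG library 2, 8-AG library 3 or aged library 2, at -0.65, -0.66 and -0.63, it passed fold and P.

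None of the other collagens that differed with age passed fold and P with 8-AG. The differences were -0.51 ± 0.32 for Col15a1, -0.15 ± 0.15 for Col2a1, -0.17 ± 0.19 for Col5a3, -0.01 ± 0.33 for Col13a1 and 0.06 ± 0.41 for Col20a1. The type IV differences were positive, from 0.46 ± 0.42 for Col4a5 to 2.16 ± 1.53 for Col4a1, and none passed. Without 8-AG library 1 all 6 were negative, from -0.59 for Col4a1 to -0.04 for Col4a6.

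The rest of the named collagens gave no call with 8-AG. Col8a2 stood at 10.9, 8.36 and 11.8 CPM in aged and 26.4, 12.0 and 12.6 CPM in 8-AG retina (0.71 ± 0.34, adjusted p = 0.996), without overlap and again with library 1 highest. Col3a1 differed by 0.09 ± 0.50, Col5a1 by 0.08 ± 0.18, Col5a2 by -0.08 ± 0.31, Col11a1 by -0.12 ± 0.44 and Col18a1 by 0.11 ± 0.11. Of the 38 collagens, 4 had all 8-AG libraries above the aged ones and 1 had all below, or 10.5% and 2.63%, against 4.82% and 3.95% of all genes. Those 4 include Col1a1 and Col17a1, which were tested only through the 8-AG libraries. No gene of the processing, receptor, partner or regulator lists passed fold and P.

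The third comparison asked the same of aged and young RPE/choroid. By fold and P, 1 of 42 collagens tested was higher in aged tissue, Col20a1, and 4 were lower, Col15a1, Col19a1, Col4a3 and Col4a5. That is 2.38% and 9.52%, against 0.717% and 0.636% of all genes. The 9.52% includes Col19a1, which had enough counts for the test only through the young libraries, where it is high. None had an adjusted p under 0.05 in edgeR, and 0% of all genes did. An unadjusted P under 0.05 was found for 7 collagens, 2.13% of all genes having one, and DESeq2 also gave 0 adjusted calls. Of the 42 changes 27 were negative, or 64.3% against 47.0% of all genes, and 15 positive, against 53.0%, with a median of -0.16 against 0.02.

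The basement membrane collagens were the group with the most negative median, -0.60, and 7 of the 8 changes were below 0. Col15a1 stood at 15.2, 8.04 and 16.2 CPM in young, 5.81, 5.24 and 2.40 CPM in aged and 0.96, 8.69 and 4.74 CPM in 8-AG tissue. Every young library was above every aged one. The change was -1.55 ± 0.45 (adjusted p = 1), and it passed fold and P with any 1 library left out, at -1.82 to -1.24.

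Col4a3 stood at 10.3, 5.39 and 8.36 CPM in young, 5.26, 3.59 and 3.38 CPM in aged and 5.10, 7.25 and 7.22 CPM in 8-AG tissue. The young and aged groups were apart by a narrow margin between 5.26 and 5.39 CPM. Its change was -0.98 ± 0.34 (adjusted p = 1), and it no longer passed without young library 1, young library 3, aged library 2 or aged library 3. Col4a5 stood at 86.2, 60.7 and 96.5 CPM in young and 61.9, 54.5 and 36.9 CPM in aged tissue, overlapping by 1 library, with a change of -0.67 ± 0.26 (adjusted p = 1). It lost the call without any of the same 4 libraries.

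The partner chains had changes of like size that missed fold or P. Col4a4 stood at 123, 112 and 150 CPM in young and 85.0, 110 and 74.4 CPM in aged tissue (-0.52 ± 0.20, adjusted p = 1). Its groups did not overlap. Col4a6 had a change of -0.88 ± 0.42, Col4a1 of -0.50 ± 0.34 and Col4a2 of -0.53 ± 0.37. Col18a1 was the one member with a positive change, 0.31 ± 0.38, at 116, 95.0 and 155 CPM in young and 137, 228 and 88.3 CPM in aged tissue.

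Markers of other cells moved beside these genes. The 8 endothelial markers found summed to 5524 to 7323 CPM in young and 3259 to 4721 CPM in aged tissue, without overlap. Rod markers ranged from 1971 to 19600 CPM in young and 604 to 16540 CPM in aged tissue. The part of endothelial RNA in the collagen changes was not tested. With the rod markers as a covariate, Col15a1 had a change of -1.64, Col4a4 of -0.61, Col4a3 of -0.97 and Col4a1 of -0.69, and 10 of 42 collagens were lower by fold and P, against 1.40% of all genes, with 0 adjusted calls.

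Col19a1 and Col20a1, both fibril-associated, were at the lower end of counting. Col19a1 had 17, 35 and 44 counts in young, 6, 10 and 3 counts in aged and 0, 12 and 21 counts in 8-AG libraries. It passed the filter for the age comparison only through the young libraries, where it is high, so its call leans on that filter. The change of -2.02 ± 0.52 (adjusted p = 1) came with no overlap between the ages. The count of 0 allows up to 3 counts, or 0.0933 CPM. Col20a1 had 15, 12 and 26 counts in young, 27, 51 and 25 counts in aged and 31, 25 and 23 counts in 8-AG libraries. In CPM its aged libraries were all higher, at 0.84 to 1.503 against 0.32 to 0.54 (1.22 ± 0.43, adjusted p = 1). It no longer passed without young library 1, young library 2 or aged library 2, with libraries of one label number summed (1.09) or with the replicate block (1.19).

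**Figure D3:**
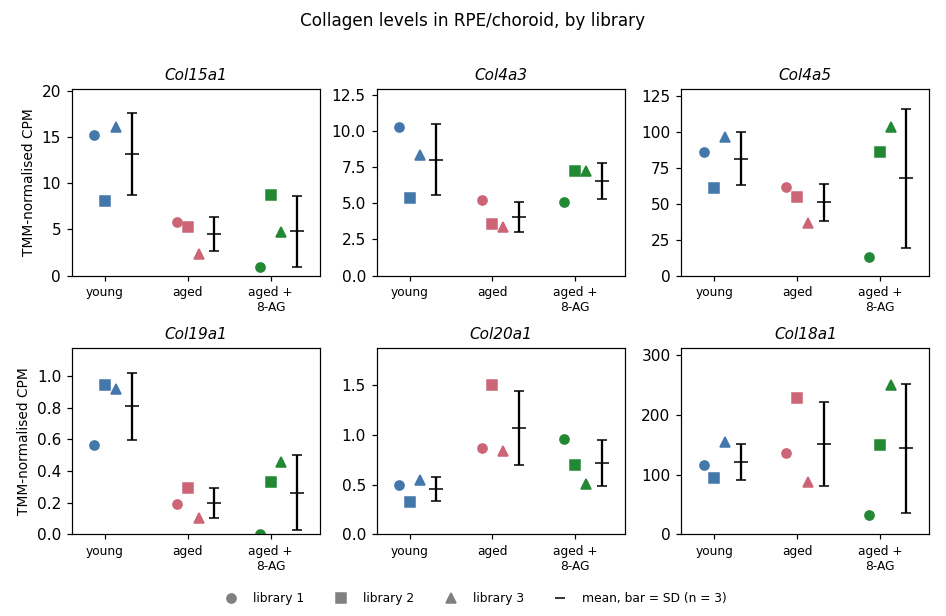
TMM-normalised CPM of 6 collagens in each of the 9 RPE/choroid libraries, with young, aged and aged + 8-AG on the horizontal axis, and the mean with SD (n = 3) beside the points. The aged points of Col15a1, Col4a3 and Col19a1 lie below all young ones and those of Col20a1 above, and 8-AG library 1 is the lowest point for Col15a1, Col4a5, Col19a1 and Col18a1.

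Among the fibrillar collagens of the RPE/choroid, none passed fold and P. Col5a2 stood at 78.5, 92.3 and 97.2 CPM in young and 53.6, 73.7 and 52.9 CPM in aged tissue, apart from each other, with a change of -0.58 ± 0.18 (adjusted p = 1) just under 1.5-fold. Col3a1, the type III chain of vessels and loose connective tissue, stood at 1462, 1403 and 1882 CPM in young and 969, 1388 and 853 CPM in aged tissue. Its groups were apart by a small margin and the change was -0.57 ± 0.25 (adjusted p = 1). Without aged library 2, Col3a1, Col5a2 and Col4a1 passed fold and P at -0.81, -0.76 and -0.86 (each adjusted p = 0.918), and 9 of 42 collagens were lower by fold and P, against 1.25% of all genes.

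Col1a1 stood at 553, 399 and 815 CPM in young and 424, 711 and 286 CPM in aged tissue, overlapping widely (-0.32 ± 0.42). Col5a1 had a change of -0.14 ± 0.31, Col2a1 of 0.62 ± 1.22 and Col11a1 of 0.18 ± 0.49. Col1a2, with its uncertain model, had 29 to 79 counts in young and aged libraries (0.40 ± 0.44).

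None of the other named collagens passed fold and P. Type VI chains had changes of -0.33 ± 0.24 for Col6a1, -0.08 ± 0.24 for Col6a2 and -0.35 ± 0.26 for Col6a3. Col8a1 had 0.30 ± 0.50 and Col8a2 -0.14 ± 0.20, the latter at 267 to 326 CPM in young and 235 to 346 CPM in aged tissue. Col9a1 had 1.245 ± 1.1996, Col12a1 -0.20 ± 0.41, Col14a1 -0.17 ± 0.33 and Col17a1 0.48 ± 0.55. The aged libraries lay wholly above the young ones for 1 collagen and wholly below for 6, or 2.38% and 14.3%, against 2.98% and 4.12% of all genes. Those 6 include Col19a1, which was tested only through the young libraries.

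Of 31 processing genes tested in RPE/choroid, 1 was higher and 2 lower by fold and P, or 3.23% and 6.45% against 0.717% and 0.636% of all genes. P3h3, one of the genes higher in aged retina, had a change of 0.82 ± 0.30 (adjusted p = 1), and the lysyl oxidase Loxl2, which cross-links collagen, one of -0.63 ± 0.19 (adjusted p = 1). The other was Colgalt2, a collagen galactosyltransferase, at -0.70 ± 0.28 (adjusted p = 1). Pxdn, peroxidasin, which forms the sulfilimine cross-links of type IV collagen, had a change of -0.65 ± 0.23 (adjusted p = 1), from 35.3 to 53.4 CPM in young to 21.6 to 30.5 CPM in aged tissue. It was the 1 of 21 partners that passed, or 4.76%. No receptor and no regulator passed, and none of these genes had an adjusted p under 0.05.

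The fourth comparison, aged RPE/choroid with and without 8-AG, again used the same aged libraries. None of 42 collagens passed fold and P in either direction, against 1.24% higher and 0.418% lower of all genes. In edgeR 0 had an adjusted p under 0.05 and 0 an unadjusted P under 0.05, against 1.69% of all genes. The 8-AG libraries lay wholly above the aged ones for 0 collagens and wholly below for 0, against 2.10% and 1.86%. Of the 42 differences 20 were above 0 and 22 below, against 51.6% and 48.4%. The common dispersion was 0.396, against 0.195 for the age comparison in this tissue and 0.0147 and 0.0179 in the retina. In simulated libraries of this spread and depth, 33% of 2-fold changes passed fold and P.

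One 8-AG library stood far from the others, and without it the common dispersion was 0.225. Col4a1 stood at 433, 653 and 275 CPM in aged and 34.9, 604 and 429 CPM in 8-AG tissue. Col1a1 stood at 424, 711 and 286 CPM against 46.0, 574 and 437 CPM, and Col3a1 at 969, 1388 and 853 CPM against 129, 1384 and 832 CPM. In each, 8-AG library 1 was far below all others and the remaining 2 lay with the aged libraries. The differences were -0.35 ± 0.95, -0.42 ± 0.88 and -0.45 ± 0.81.

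That library was the one with the most muscle and rod RNA. Dcn, the fibroblast proteoglycan decorin, stood at 788 CPM there against 2446 to 6718 CPM elsewhere, and the endothelial markers at 675 CPM against 3259 to 7323 CPM. Type VI collagen followed, with Col6a1 at 29.4 CPM against 302 to 565 CPM and Col6a2 at 21.9 CPM against 204 to 364 CPM in the other 8 libraries. A few collagens instead had their highest level in it, among them Col2a1, at 27.8 CPM, Col5a3, at 63.5 CPM, and Col22a1, at 13.2 CPM. Their relation to the mixed tissue was not tested.

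**Figure D4:**
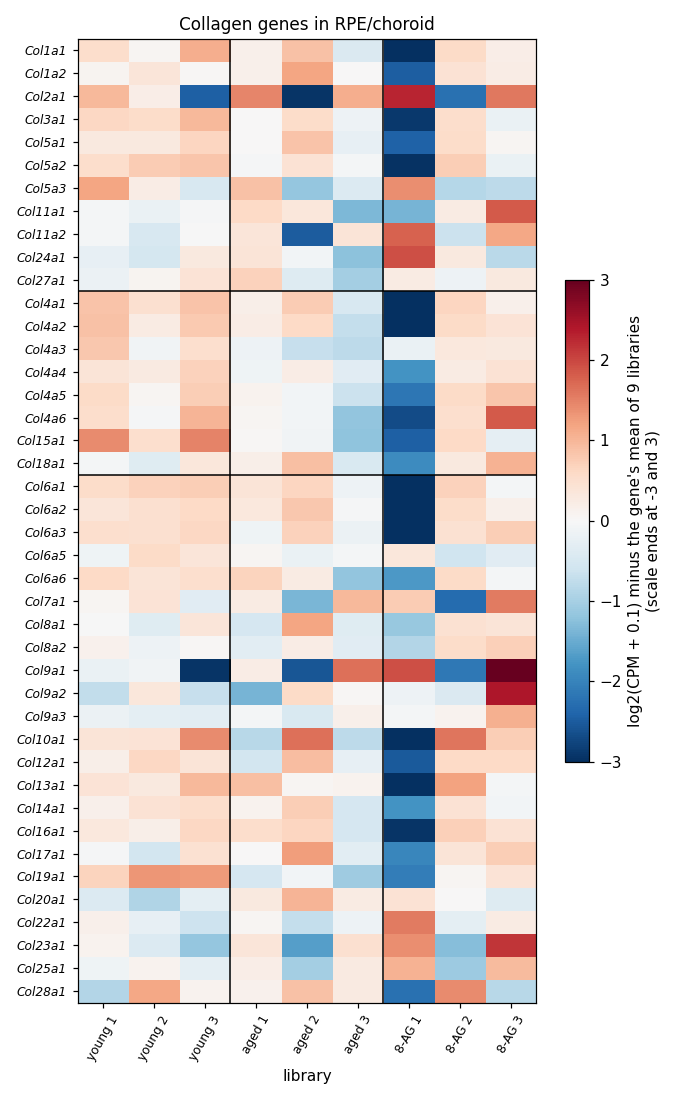
The 42 collagens tested in RPE/choroid (rows, by structural group) in the 9 libraries (columns), as log2(CPM + 0.1) minus the gene's mean, with the colour scale ending at -3 and 3. 8-AG library 1 is the darkest blue column, with Col4a1 at 34.9 CPM, and 8-AG library 3 is red for Col9a1, Col9a2 and Col4a6.

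Library 3 of the 8-AG group stood out in the other direction. Col9a1, Col9a2 and Col9a3, the 3 chains of type IX collagen, stood at 54.6, 68.7 and 56.0 CPM in it, against highest values of 11.6, 19.1 and 29.7 CPM elsewhere. Col11a1, at 46.8 CPM, Col18a1, at 250 CPM, and Col4a6, at 44.3 CPM, also had their highest level there. The 6 cartilage markers summed to 546 CPM in that library and to 35.7 to 133 CPM in the other 8, and Krt12 stood at 125 CPM against 1.90 CPM or less. The 6 surface epithelium markers found summed to 221 CPM there, 1189 CPM in 8-AG library 1 and 4.21 to 10.9 CPM in the other 7. Their part in the type IX levels was not tested.

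Without 8-AG library 1, 3 of 42 collagens were higher with 8-AG by fold and P, against 1.62% of all genes, with 0 adjusted calls. Col4a5 differed by 0.89, Col4a6 by 1.64 and Col8a2 by 0.76 (each adjusted p = 0.925). Col4a5 then stood at 86.3 and 104 CPM with 8-AG against 36.9 to 61.9 CPM in aged tissue, and Col8a2 at 439 and 489 CPM against 235 to 346 CPM. Over all 3 libraries the differences were 0.41 ± 0.72, 1.10 ± 1.03 and 0.42 ± 0.46. Col4a3, lower in aged than in young tissue, differed by 0.70 ± 0.34 (adjusted p = 1), and Col15a1 by 0.10 ± 0.81. The same aged libraries set the fall of Col4a3 with age, so its difference with 8-AG is not independent of that fall. No gene of the 4 lists passed fold and P.

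The change with age was also compared between the tissues, in one fit with a term for the difference. Of 42 collagens 0 had an adjusted p under 0.05, against 0.167% of all genes, and 7 had P under 0.05, against 8.09% of all genes. Col15a1 had the lowest P. Its log2 change was 1.41 in retina and -1.55 in RPE/choroid, a difference of -2.97 ± 0.56 (edgeR, adjusted p = 0.0765). Col20a1 was opposite, lower in aged retina and higher in aged RPE/choroid, a difference of 2.33 ± 0.63 (adjusted p = 0.187).

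Col5a2 differed between the tissues by -1.26 ± 0.37 (adjusted p = 0.25), with 0.68 in the retina and -0.58 in the RPE/choroid, and Col19a1 by -1.89 ± 0.62 (adjusted p = 0.344). Col4a1 and Col4a2 differed by 3.40 ± 1.34 and 2.42 ± 1.06, and both rest on the retina libraries with lens markers. Col1a2, at 10.8 ± 3.13, rests on a gene with 0 counts in every aged retina library. For the difference with 8-AG, 0 of 42 collagens had an adjusted p under 0.05 and 1, Col1a2, had P under 0.05, against 2.51% of all genes.

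**Figure D5:**
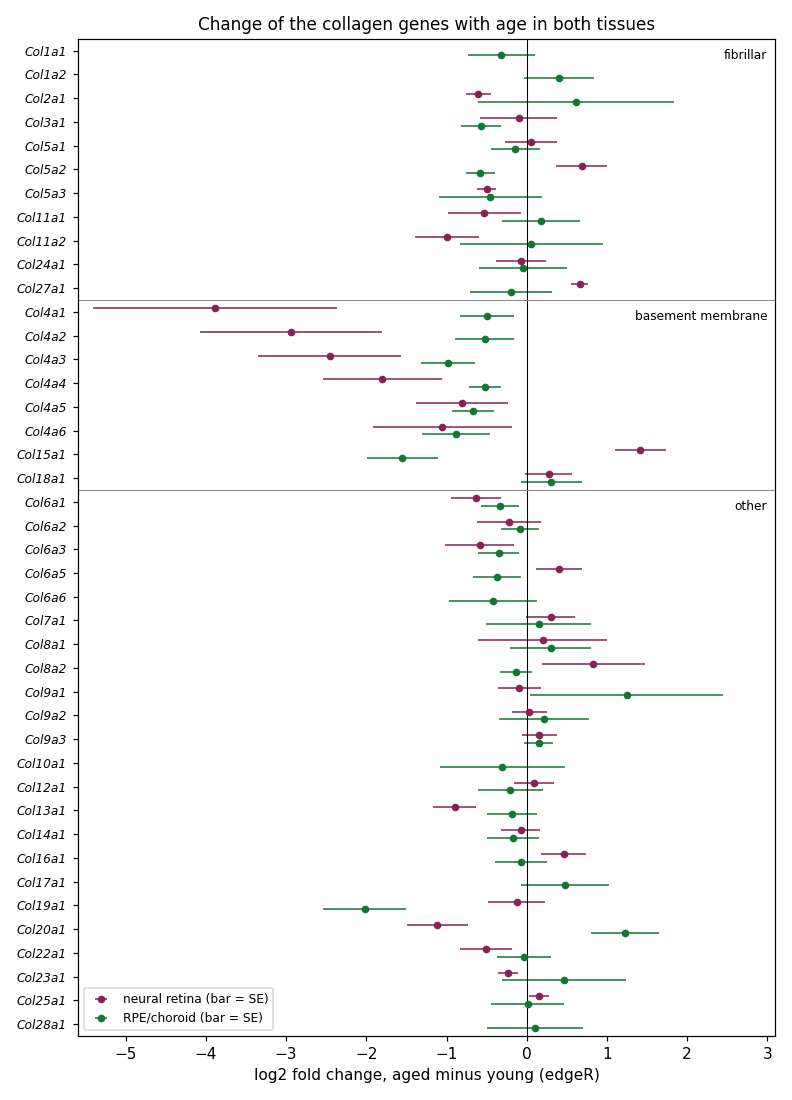
Log2 fold change of each collagen, aged minus young, with its SE, in neural retina and in RPE/choroid, by structural group. Col15a1 and Col20a1 lie on opposite sides of 0 in the 2 tissues (1.41 and -1.55, -1.12 and 1.22), and the type IV changes in retina have the widest errors, up to 1.52 for Col4a1.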

How the data were processed

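Bulk RNA-seq libraries of neural retina and RPE/choroid were analysed from the deposited gene tables, 3 per group. For the retina, the authors deposited RSEM expected counts, of which 11.5% were not whole and all were rounded here. For the RPE/choroid, the authors deposited raw counts. The submitters' processing notes name Bowtie2 2.1.0, RSEM 1.2.15, edgeR and the Rnor_6.0 build. The counter used for the RPE/choroid is not given in the sources used here. The authors' TMM-normalised signal for the retina served for symbols. Divided by the value of 1 read, 99.99% of its values were whole reads within 0.01 reads, and the count test on these reads called 2164 genes with age and 3 with 8-AG at an adjusted p under 0.05. Size-factor-normalised signal columns in the deposited RPE/choroid comparison tables were read for gene names only. The authors' own fold changes and p-values were not used.

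Symbols came from the retina table and from the gene names of the RPE/choroid comparison tables. Symbols and identifiers were joined by names and by matching values. Col15a1 and Col23a1 are sums of 2 gene models each. Col26a1 had 0 or 1 count in each retina library and was matched to no identifier.

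Each comparison used its 6 libraries in edgeR 4.0.16 (R 4.3.3): filterByExpr, TMM, glmQLFit with robust=TRUE and glmQLFTest, with Benjamini-Hochberg adjustment over all genes tested. SE is the log2 fold change divided by the root of F. A call needed a fold change over 1.5 with P under 0.05. Exact permutation of 3 against 3 cannot go below 0.1 and was not used. DESeq2 1.42.0, another scaling, filters, covariates and left-out libraries were tried as alternatives. The fits were tested on simulated counts. The members, lists and tests were chosen with earlier results of these data known. Named were all called collagens and a fixed set of the best known, and list genes with an adjusted p under 0.05 or up to 3 per list past fold and P. Others are named where a library or a setting singled them out after their values were seen. Promoter windows are RefSeq's, GRCr8, and their coordinates do not apply to the count tables. Depth was 12283458 to 15644346 counts in retina and 28573828 to 48203050 in RPE/choroid, and limits on a count of 0 cover counting error only.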

Additional observations from a re-analysis of the deposited data

How the results depend on the processing

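The number of collagens called depended on the libraries. In aged against young retina, leaving out 1 library gave 2 to 5 higher, 1 to 12 lower and 1 to 8 with an adjusted p under 0.05. The most lower and adjusted calls came without young library 3 and the fewest without young library 2, and the 5 higher came without aged library 2. Lower calls also moved past 1.5 times without aged library 3, to 1, and adjusted calls without young library 1, to 2, aged library 1, to 7, and aged library 3, to 2. DESeq2 gave 9 lower and 7 adjusted calls, robust=FALSE 8 lower, a minimum of 10 counts in every library 1 higher, and all 3 groups in one fit 2 adjusted calls. With that minimum Col15a1 was not tested. Among alternatives added after seeing the data, the lens covariate gave 13 higher and 0 lower, but lens markers did not overlap between the ages. Counts without young libraries 1 and 2 are not given, since 1 young library is left. Separate gene models and the reads recovered from the normalised table each gave 1 higher, since Col15a1 was then not tested. Col4a3 reversed to 1.26 with the lens covariate. In retina with 8-AG, leaving out 1 library gave 2 to 4 higher, 0 to 2 lower (2 without aged library 2, 1 without 8-AG library 2 or 3) and 0 adjusted calls, and 2 higher without aged library 1, aged library 3 or 8-AG library 1. There the minimum of 10 counts gave 1 higher, since Col1a1 and Col17a1 had fewer than 10 counts in aged libraries and were then not tested.

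In aged against young RPE/choroid, leaving out 1 library gave 0 to 1 higher, 2 to 9 lower and 0 adjusted calls. Lower calls were 9 without aged library 2 and 2 without aged library 3 or young library 3, and the higher call was lost without aged library 2, young library 1 or young library 2. All 3 groups in one fit gave 1 lower, libraries of one label number summed 0 higher, and the rod covariate 3 higher and 10 lower. In RPE/choroid with 8-AG, leaving out 1 library gave 0 to 3 higher, 0 to 1 lower and 0 adjusted calls, with 3 higher without 8-AG library 1, 1 without any aged library or 8-AG library 2, and 1 lower without 8-AG library 2. DESeq2 gave 2 higher, no filter 1, summed label numbers 1, and the rod covariate 1 higher and 5 lower. The difference between the tissues gave 0 adjusted calls in every setting run. Where no cause is named, it was not tested.

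The replicate numbers mark no shared animal or day in the labels and were not used as pairs. Deviations of same-numbered libraries correlated at -0.639 to 0.714 across genes. With 3 libraries per group, this cannot decide whether the libraries were paired. With the replicate block, 0 collagens were higher in aged RPE/choroid and 1 with 8-AG there, and no other count moved past 1.5 times. Of 277 values of single collagens under alternatives, 225 kept direction and side of the threshold, 46 lost the call, 5 gained it and 1 reversed. In simulations of 4-fold changes, fold and P recovered 99% in retina with age, 100% with 8-AG, 95% in RPE/choroid with age and 83% with 8-AG. An adjusted p under 0.05 recovered 98%, 93%, 56% and 0% of them, and 88%, 76%, 4% and 0% of 2-fold changes.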
